A study of Homo sapiens and Mus musculus with 16 samples.

Results

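Polycomb repressive complex 2 (PRC2) is the enzyme complex that places methyl groups on lysine 27 of histone H3. Its transcripts were compared here between P-bodies and cytoplasm. The 9 genes were taken by symbol: EZH1, EZH2, EED, SUZ12, JARID2, MTF2, PHF19, AEBP2 and RBBP7. All 9 were found among the 22286 genes of the human count table and, ignoring case, all 9 among the 15881 genes of the mouse table. Each had counts in every library, so no member was lost to a filter on low values.

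PRC2 keeps developmental genes silent through the trimethylated form of this mark, H3K27me3. EZH1 and EZH2 are alternative catalytic subunits, EED reads the mark and stimulates the enzyme, SUZ12 is the scaffold, and RBBP7 is a histone-binding subunit. Accessory proteins define separate forms of the complex: MTF2 and PHF19 belong to PRC2.1, whereas JARID2 and AEBP2 belong to PRC2.2. EZH2 is known as the form of dividing cells and EZH1 as the form that persists in cells that have left the cycle. P-bodies are cytoplasmic condensates of untranslated mRNA and protein.

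P-body-seq sorts GFP-LSM14A particles from lysed cells and counts their RNA beside that of the cytoplasm they were sorted from, which still contained P-bodies. The 16 libraries made up 8 groups, 1 P-body and 1 cytoplasm group of 2 libraries for each of 4 cell types. HEK293T, a human embryonic kidney line, carried LSM14a-GFP, as did KH2 mouse embryonic stem cells (mESC) grown in serum-LIF. Both expressed the fusion from a lentivirus driven by the EF1a promoter, per the study's methods. UCLA4 human embryonic stem cells were differentiated to liver bud progenitors or to neurons of day 20, and they carried LSM14a-GFP at the AAVS1 locus. Every group, cytoplasm included, therefore carried the fusion, and a cell without it was not analysed here. The labels give HEK293T and mESC libraries as total RNA and the other libraries as polyA RNA, so the chemistry and the cell type cannot be told apart between these pairs. The labels do not say that replicates were separate cultures, so the p-values measure the spread between libraries only.

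Libraries held between 6368953 and 17972284 counts, and 3 counts, taken as the floor of detection, corresponded to at most 0.471 CPM (a gene's counts scaled to the library total). The neuron P-body replicates differed most, with a chi-square of 21.1 per degree of freedom against 2.005 to 5.45 in the other groups. Neuron markers summed to between 9690 and 12460 CPM in the neurons and to at most 261.6 CPM in liver bud progenitors. Of 10 liver bud markers, 9 reached 1 CPM in liver bud progenitors, with APOB at 299.4 CPM in cytoplasm. ALB, the mature hepatocyte marker, had 0 counts in both cytoplasm libraries. The liver bud markers summed to 431.5 to 446.2 CPM in liver bud progenitor cytoplasm and to 57.22 to 61.26 CPM in neuron cytoplasm. In P-bodies their sum was not higher in liver bud progenitors (210.4 to 221.3 CPM) than in neurons (265.2 to 271.3 CPM) and was near that in HEK293T (205.1 to 206.3 CPM). PROX1 had a mean of 14.8 CPM in liver bud progenitor P-bodies and 259.1 CPM in neuron P-bodies. Pluripotency markers summed to between 1180 and 1504 CPM in liver bud progenitors, LIN28A leading. In mESC all 10 pluripotency markers were above 1 CPM. TMM, the scaling used by the tests, moved the median log2 change of all genes against scaling by library totals alone, and the latter shifted it by -0.40 in mESC, -0.13 in HEK293T, 0.17 in neurons and -0.18 in liver bud progenitors. With library totals alone, genes called higher in P-bodies made up 44.1% in place of 55.7% of the calls in liver bud progenitors, 62.0% in place of 50.8% in neurons and 28.2% in place of 55.6% in mESC. CPM values below are scaled to library totals, and log2 changes are from the TMM fit.

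The comparison of fractions asked which RNAs each cell type stores in its P-bodies. PRC2 transcripts were mostly P-body enriched: MTF2, EZH2, SUZ12 and AEBP2 were called higher in P-bodies in all 4 cell types (edgeR, adjusted p under 0.05). In HEK293T, 7 of the 9 genes were called higher, where 19.3% of all genes were, and PHF19 was called lower, where 22.8% were. In liver bud progenitors 5 were called higher against a background of 21.4% and JARID2 was called lower against 17.1%. In neurons 6 were called higher against 14.6% and 0 lower against 14.1%. In mESC 8 were called higher against 25.8% and 0 lower against 20.6%, a split that became 6 higher and 1 lower with library totals alone. The median log2 change of the 9 genes was 0.77 in mESC, 0.85 in HEK293T, 0.50 in neurons and 0.61 in liver bud progenitors, beside medians of all genes of -0.11, -0.0072, 0.19 and -0.092. The plot of log2 changes by member shows that EED, PHF19 and JARID2 had estimates on both sides of 0. Where fractions are said below not to overlap, this describes the CPM of the libraries and is not a test. Among all genes, both P-body libraries were higher for 38.7% and lower for 25.7% in neurons, and for 20.8% and 58.4% in mESC. Such shares are not given for HEK293T and liver bud progenitors.

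**Figure D1:**
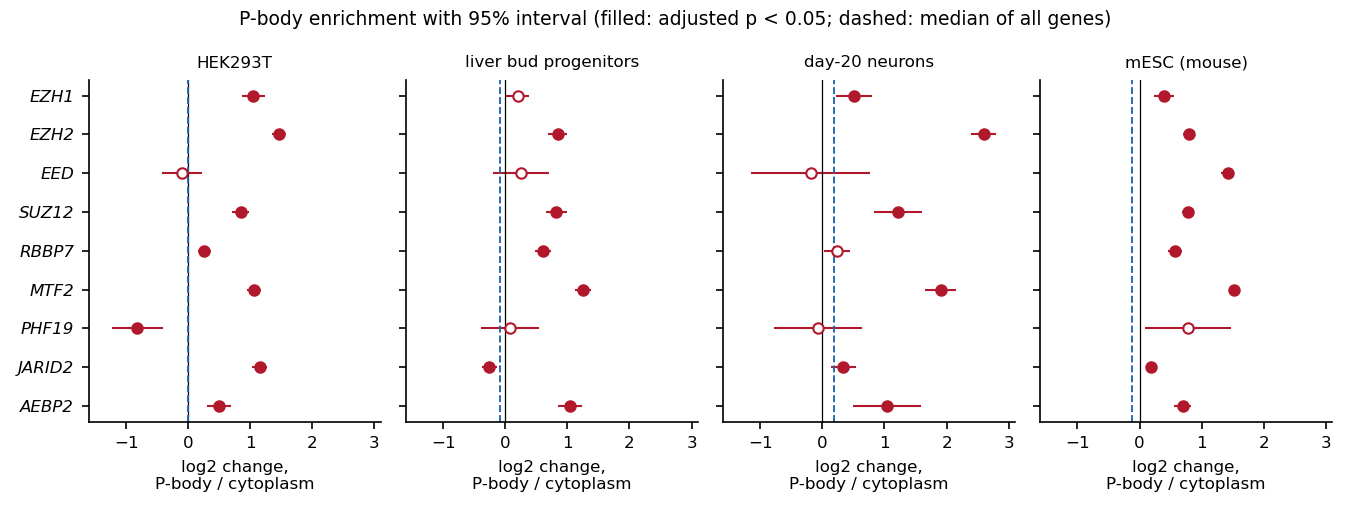
Log2 change between P-body and cytoplasm (x axis) for each PRC2 gene (y axis) in 4 cell types, with 95% intervals from edgeR on 2 libraries per fraction. Filled points passed an adjusted p of 0.05, and dashed lines mark the median of all genes. EZH2 in neurons stands farthest to the right at 2.60, and PHF19 in HEK293T farthest to the left at -0.82.

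EZH2 (chromosome 7, 148807257 to 148884321, minus strand, hg38) was the member with the largest change. In neurons EZH2 had 541 and 593 CPM in P-bodies and 78.3 and 89.2 CPM in cytoplasm. Both P-body libraries lay far above both cytoplasm libraries, a 6.04-fold difference (95% interval 5.24 to 6.97; log2 change 2.60 ± 0.095 SE, edgeR adjusted p = 2.25e-09). In HEK293T it had 674 and 679 CPM in P-bodies against 276 and 263 CPM in cytoplasm, a change of 1.46 ± 0.055 on the log2 scale (edgeR adjusted p = 1.82e-31). Liver bud progenitors, which held less of it, had 151 and 153 CPM against 101 and 91.9 CPM, a change of 0.84 ± 0.077. The fractions again did not overlap. In mESC, Ezh2 (chromosome 6, 47530139 to 47595341, minus strand, mm10) had 468 and 439 CPM in P-bodies and 354 and 337 CPM in cytoplasm, a change of 0.80 ± 0.044. The direction for EZH2 was the same in all 4 cell types under every scaling run. Of 12 cell cycle genes, all above 1 CPM in both neuron fractions, 8 had both P-body libraries above both cytoplasm libraries, beside 38.7% of all genes, and 2 (MCM2 and MCM5) had both below, beside 25.7%. Their summed level was between 3120 and 3378 CPM in P-bodies and between 1454 and 1555 CPM in cytoplasm, and most of it was MKI67 (means 1954 and 1044 CPM) and TOP2A (861.9 and 185.2 CPM). Of 8 neural progenitor markers, PAX6, SOX2, SOX1 and HES1 were higher in both P-body libraries, whereas NES, NOTCH1, HES5 and FABP7 were lower in both. The sum of these markers, between 887.7 and 977.2 CPM in P-bodies and between 611.6 and 635.8 CPM in cytoplasm, was higher through PAX6 (422.3 and 83.7 CPM) and SOX2 (230.5 and 64.0 CPM). The part of these genes in the EZH2 result was not tested.

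The 3′ untranslated region of EZH2 is short, 263 bases in the transcript used, and microRNAs of the miR-101, miR-26 and let-7 families are known to act on EZH2. Their mature forms are shown because each has a seed match there, with the seed (bases 2 to 8) in capitals, from RefSeq (GRCh38.p14).
hsa-miR-101-3p: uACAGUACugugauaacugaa
hsa-miR-26a-5p: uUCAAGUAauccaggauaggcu
hsa-let-7a-5p: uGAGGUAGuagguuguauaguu
The matching places in EZH2 follow in the orientation of the transcript, 5′ to 3′, on the minus strand of hg38, with the seed match in capitals.
miR-101 match nearer the stop codon, chr7:148807569-148807598: aggaacctcgaGTACTGTgggcaatttaga
miR-101 match farther from it, chr7:148807514-148807543: gaatttgcaaaGTACTGTaagaataattta
miR-26a match, chr7:148807383-148807412: aactttgaataaagaaTACTTGAacttgtc
let-7a match, chr7:148807616-148807645: catctgCTACCTCctcccccctcctctgaa
The letters searched on the transcript strand were GTACTGT for miR-101-3p, TACTTGA for miR-26a-5p and CTACCTC for let-7a-5p. They occur in 11.1%, 13.1% and 11.0% of the 17283 human 3′ untranslated regions, and in 1.6%, 1.4% and 2.0% of the 1000 nearest in length to that of EZH2. EZH1 holds a let-7a match at chr17:42701966-42701995 in a region of 2257 bases: aggtcaccttaCTACCTCctccctcgtggc. It holds 0 matches for miR-101-3p and miR-26a-5p. Among the other members, miR-101-3p matches occur once in EED and RBBP7 and 2 times in AEBP2, and miR-26a-5p matches occur in JARID2 and AEBP2. MTF2 holds 0 matches for the 7 microRNAs searched, which also included miR-302a-3p, miR-122-5p, miR-300 and miR-9-5p. miR-124-3p and the mouse microRNAs were not analysed here. A match of letters is a description of the sequence and was not tested against P-body enrichment.

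EZH1 (chromosome 17, 42700275 to 42745049, minus strand) was enriched less than EZH2 in each cell type. In HEK293T it had 75.4 and 72.9 CPM in P-bodies and 38.6 and 39.8 CPM in cytoplasm, a change of 1.05 ± 0.093 on the log2 scale (edgeR adjusted p = 3.98e-15). The fractions overlapped in liver bud progenitors, at 65.8 and 63.8 CPM against 62.2 and 65.9 CPM, and the change of 0.20 ± 0.094 did not pass (edgeR adjusted p = 0.087). Neurons had 109 and 90.5 CPM in P-bodies and 60.4 and 65.3 CPM in cytoplasm, a change of 0.50 ± 0.14 (edgeR adjusted p = 0.0131). That call was lost without cytoplasm replicate 1, at 0.47, and without cytoplasm replicate 2, at 0.52. In mESC Ezh1 had 84.6 and 76.8 CPM against 77.4 and 85.1 CPM. These libraries overlapped, the TMM fit called it higher by 0.39 ± 0.076, and scaling by library totals alone gave -0.0096, so its direction rested on the scaling.

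Because both enzymes were measured in the same libraries, their ratio does not depend on the scaling. Per kilobase of transcript, EZH2 was 15.6 and 16.3 times EZH1 in HEK293T P-bodies and 12.5 and 11.5 times in the cytoplasm. In liver bud progenitors the ratio was 4.0 and 4.18 in P-bodies against 2.84 and 2.43 in cytoplasm. In neurons it was 8.66 and 11.4 in P-bodies against 2.26 and 2.38 in cytoplasm. P-body libraries were above cytoplasm libraries in each human cell type. In mESC the ratio was 8.34 and 8.63 in P-bodies against 6.89 and 5.98 in cytoplasm, again with no overlap. The mean log2 ratio was higher in P-bodies by 2.098 in neurons, 0.64 in liver bud progenitors, 0.41 in HEK293T and 0.40 in mESC. The size of the ratio depended on the transcript length used: with merged exons the neuron values were 3.68 and 0.864.

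**Figure D2:**
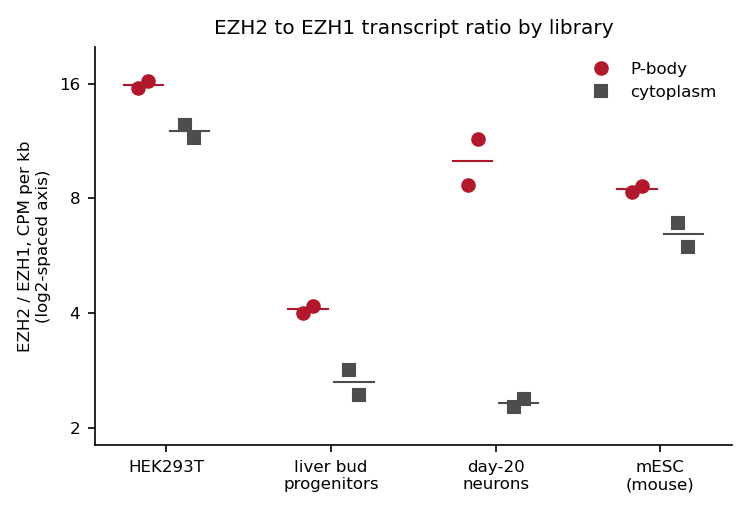
Ratio of EZH2 to EZH1 in CPM per kilobase (y axis, log2-spaced) in each library of 4 cell types (x axis), with points for libraries and bars for means of 2. P-body libraries are above cytoplasm libraries in every cell type, and the gap is widest in neurons, at means of 10.04 and 2.32.

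The core subunits did not move as a block. SUZ12 (chromosome 17, 31937007 to 32001038, plus strand) was P-body enriched in the 4 cell types. It had 167 and 182 CPM in HEK293T P-bodies against 106 and 107 CPM in cytoplasm, a log2 change of 0.85 ± 0.069. It had 109 and 96.6 CPM against 68.5 and 64.0 CPM in liver bud progenitors, a change of 0.82 ± 0.088. Neither pair of fractions overlapped. In neurons, where SUZ12 was lower, 49.8 and 57.6 CPM in P-bodies stood against 20.7 and 20.4 CPM in cytoplasm, a change of 1.22 ± 0.18 (edgeR adjusted p = 0.000164). In mESC Suz12 (chromosome 11, 79993106 to 80034123, plus strand, mm10) had 313 and 317 CPM against 256 and 229 CPM, a change of 0.78 ± 0.050. The pseudogene SUZ12P1 is a near copy in the human table, with 2.20 to 43.4 CPM and its highest values in liver bud progenitor P-bodies, so the split of reads between them is uncertain.

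EED (chromosome 11, 86201212 to 86278813, plus strand) was scarce in the human libraries and was not called in any human fraction comparison. It had 12.6 and 15.9 CPM in HEK293T P-bodies against 15.8 and 17.5 CPM in cytoplasm, which overlapped, with a log2 change of -0.10 (95% interval -0.41 to 0.22). It had 10.9 and 9.44 CPM against 9.11 and 10.2 CPM in liver bud progenitors, and 4.17 and 6.87 CPM against 5.14 and 6.09 CPM in neurons. Counts behind these values ranged down to 36 reads. The interval of the log2 change in neurons, -1.15 to 0.77, was the widest of the human comparisons of fractions for EED. In mESC, Eed (chromosome 7, 89954654 to 89980983, minus strand, mm10) was instead abundant and strongly enriched, with 311 and 301 CPM in P-bodies and 157 and 145 CPM in cytoplasm. The mESC fractions did not overlap, and the change was 1.42 ± 0.051 (edgeR adjusted p = 2.01e-17). Species, annotation and cell type cannot be told apart in this contrast between human and mouse.

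RBBP7 (chromosome X, 16839283 to 16870362, minus strand) differed by at most 1.52-fold between fractions. It had 679 and 670 CPM in HEK293T P-bodies against 607 and 624 CPM in cytoplasm, with no overlap on library totals that include ribosomal RNA. The TMM fit gave a 1.20-fold difference (log2 change 0.26 ± 0.051, edgeR adjusted p = 1.51e-05). The difference was 1.52-fold in liver bud progenitors, with 242 and 249 CPM against 191 and 176 CPM. In neurons 214 and 232 CPM stood against 169 and 168 CPM. These did not overlap, but the change of 0.24 ± 0.096 did not pass (edgeR adjusted p = 0.0849). It was called in 6 of the alternatives, among them DESeq2 at 0.29, library totals alone at 0.40 and the fit without P-body replicate 1 at 0.28. In mESC Rbbp7 (chromosome X, 162760402 to 162779092, plus strand, mm10) rose 1.49-fold in the TMM fit. Its CPM differed less, at 288 and 298 against 278 and 242, with means of 292.8 and 260.1. Exons of RBBP7 overlap TXLNG on the other strand for 179 bases in human, and whether the counting used strand is not given in the sources used here.

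Of the PRC2.1 subunits, MTF2 (chromosome 1, 93079235 to 93139079, plus strand), which recruits the complex to unmethylated CpG islands, was P-body enriched in the 4 cell types. It had 587 and 599 CPM in HEK293T P-bodies against 319 and 304 CPM in cytoplasm, a 2.08-fold difference. Its level in liver bud progenitors was 343 and 323 CPM against 160.0 and 157 CPM, a 2.39-fold difference. In neurons MTF2 had 179 and 202 CPM in P-bodies but 44.9 and 45.9 CPM in cytoplasm, which was 3.74-fold (95% interval 3.13 to 4.46; edgeR adjusted p = 9.73e-08). No pair of fractions overlapped. In mESC, Mtf2 (chromosome 5, 108065674 to 108109004, plus strand, mm10) reached 1899.7 and 1922 CPM in P-bodies against 874 and 879.5 CPM in cytoplasm, the highest level of any member in any library. Its change there was 1.53 ± 0.035 (edgeR adjusted p = 8.58e-21). Exons of mouse Mtf2 overlap Tmed5 on the other strand for 395 bases.

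PHF19 (chromosome 9, 120855651 to 120894896, minus strand), a paralogue of MTF2, was the least abundant member per kilobase of transcript in 6 of the 8 groups, and in 4 of them with merged exons. In HEK293T it had 4.77 and 8.85 CPM in P-bodies and 11.1 and 15.6 CPM in cytoplasm. The fractions did not overlap, and PHF19 was lower in P-bodies by a log2 change of -0.82 ± 0.21 (edgeR adjusted p = 0.000566). Without P-body replicate 1 the change was -0.46 and the call was lost, and DESeq2 did not call it at -0.74. In liver bud progenitors the fractions overlapped, at 7.02 and 14.2 CPM against 9.89 and 13.02 CPM, and the replicates differed more than the means of the fractions. Neurons had 13.9 and 8.87 CPM against 11.2 and 10.1 CPM, also overlapping. In mESC Phf19 was scarce, at 3.24 and 2.85 CPM against 2.33 and 2.37 CPM, and its change of 0.77 ± 0.33 did not pass (edgeR adjusted p = 0.0624).

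Of the PRC2.2 subunits, JARID2 (chromosome 6, 15246069 to 15522042, plus strand), a substrate mimic that helps to recruit and activate the enzyme, was the member called higher in some cell types and lower in liver bud progenitors. In HEK293T it had 315 and 311 CPM in P-bodies and 150 and 159 CPM in cytoplasm, a 2.22-fold enrichment (edgeR adjusted p = 1.42e-24). In liver bud progenitors the order was the opposite, with 259 and 266 CPM in P-bodies against 345 and 369 CPM in cytoplasm. No library overlapped, and JARID2 was lower in P-bodies by -0.26 ± 0.061 on the log2 scale (edgeR adjusted p = 0.000309), a call kept under every alternative run. In neurons it had 346 and 310 CPM against 227 and 238 CPM, and the change of 0.33 ± 0.093 passed (edgeR adjusted p = 0.0164). That call was lost without P-body replicate 1, at 0.24, and without cytoplasm replicate 1 or 2, at 0.32 in each. In mESC, Jarid2 (chromosome 13, 44729474 to 44921643, plus strand, mm10) had 472 and 502 CPM in P-bodies, below 568 and 562 CPM in cytoplasm. The TMM fit called it higher by 0.19 ± 0.041, while library totals alone called it lower at -0.22, so no direction can be given for it in mESC.

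AEBP2 (chromosome 12, 19404045 to 19720801, plus strand), a zinc finger protein that stabilizes the complex, was P-body enriched throughout. It had 56.2 and 61.1 CPM in HEK293T P-bodies against 47.6 and 43.3 CPM in cytoplasm, a 1.41-fold difference. Liver bud progenitors had 79.3 and 87.0 CPM of it against 48.7 and 43.9 CPM, a 2.05-fold difference. In neurons AEBP2 had 26.4 and 37.8 CPM against 11.7 and 16.3 CPM, which was also 2.05-fold but with a wider interval, from 1.41 to 2.99. Those fractions did not overlap, and the call was lost without cytoplasm replicate 1, at 0.83 on the log2 scale. In mESC Aebp2 (chromosome 6, 140622663 to 140678472, plus strand, mm10) had 113 and 124 CPM against 97.1 and 96.5 CPM, a 1.62-fold difference in the TMM fit (edgeR adjusted p = 1.83e-09).

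**Figure D3:**
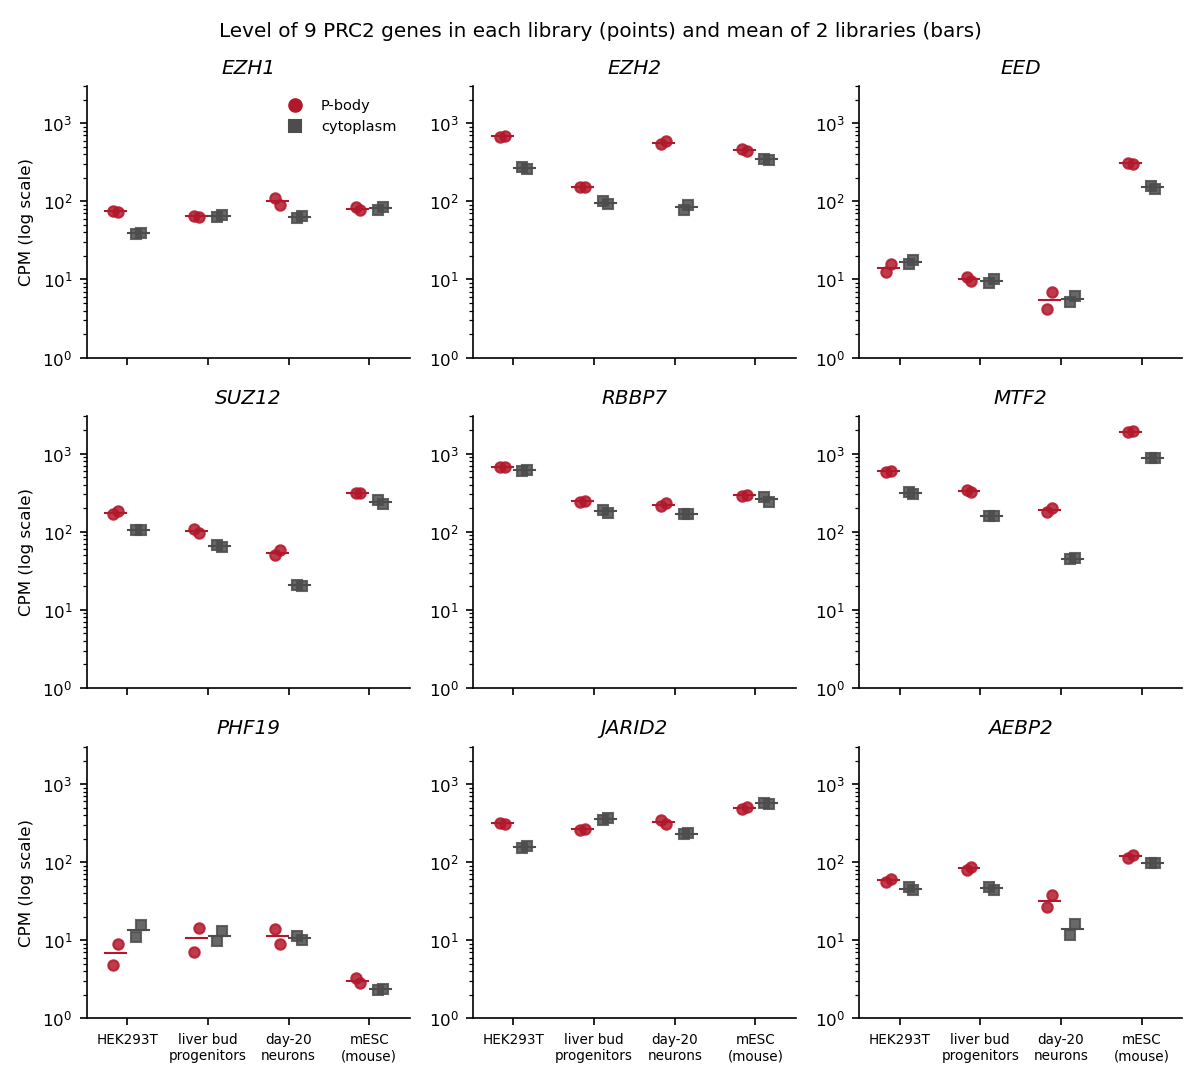
Level of each PRC2 gene (panels) in CPM on a log axis in the P-body and cytoplasm libraries of 4 cell types (x axis), with points for libraries and bars for means of 2. EED is between 4.17 and 17.5 CPM in the human libraries and between 145 and 311 CPM in the mouse libraries, and JARID2 is lower in P-bodies than in cytoplasm in liver bud progenitors.

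The make-up of the PRC2 transcript pool can be compared between members per kilobase of transcript. In cytoplasm RBBP7 was highest in all 3 human cell types, at 269.9, 80.5 and 73.9 CPM per kilobase, whereas Mtf2 led in mESC at 215.9. With merged exons in place of the transcript, RBBP7 stayed highest in HEK293T cytoplasm, but JARID2 was highest in that of liver bud progenitors, at 57.2 against 25.0 for RBBP7, and in that of neurons, at 37.2 against 23.0. In neuron P-bodies EZH2 took the lead at 213.7 CPM per kilobase, above RBBP7 at 97.6, whereas with merged exons EZH2 and JARID2 were close, at 52.6 and 52.5. In the neuron cytoplasm EZH2 stood at 31.6, below RBBP7 and below JARID2 at 38.7. PHF19, EED and AEBP2 were the lowest in human cytoplasm, and neighbouring members overlapped between libraries for EED, PHF19 and AEBP2 in neurons and for EZH1, EED and AEBP2 in part in HEK293T. In mESC the cytoplasm libraries of Ezh2 and Rbbp7 overlapped. With merged exons, 1 to 6 of the 9 members kept their rank, depending on the group. Levels were also summed over the 9 members, on library totals that include ribosomal RNA. P-bodies of mESC held 1105 ± 0.51 CPM per kilobase against 715 ± 22.3 in cytoplasm, and those of HEK293T 822 ± 4.60 against 525 ± 1.20. Those of neurons held 457 ± 18.9 against 181 ± 5.32 and those of liver bud progenitors 349 ± 0.62 against 259 ± 4.69 (SD, n = 2).

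Neurons and liver bud progenitors came from the same stem cell line and share the library chemistry, so their P-body enrichment was compared directly as an interaction over 8 libraries. These comparisons use the same libraries as the fraction comparisons above. EZH2, MTF2 and JARID2 were more enriched in neurons, 3 members where 9.21% of all genes were called higher, and RBBP7 was less enriched, where 8.5% were called lower. EZH2 differed most, by 1.75 ± 0.12 on the log2 scale, 3.36-fold (edgeR adjusted p = 1.34e-07). MTF2 differed by 0.64 ± 0.12 (edgeR adjusted p = 0.00149). JARID2 differed by 0.58 ± 0.12 (edgeR adjusted p = 0.00233), lower in P-bodies of liver bud progenitors and higher in those of neurons. These 3 calls were kept under every alternative run. The RBBP7 difference of -0.38 ± 0.12 (edgeR adjusted p = 0.0343) was lost with RLE size factors or DESeq2 at -0.34, with filterByExpr at -0.23 and with library totals alone at -0.016. RBBP7 also lost it without any of the 4 liver bud progenitor libraries, between -0.43 and -0.32, and without neuron cytoplasm replicate 1 at -0.40. AEBP2, SUZ12, EZH1, EED and PHF19 did not pass, and the interval of the AEBP2 difference ran from -0.63 to 0.63. Scaling by library totals alone shifted the median of all genes by 0.35 here, and gave 5 members higher and 0 lower, with genes called higher at 78.9% in place of 52.0% of all calls.

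The same cells were also compared within each fraction. In cytoplasm, 4 members were called lower in neurons, where 25.8% of all genes were: MTF2 by -1.42 ± 0.10, AEBP2 by -1.34 ± 0.16, SUZ12 by -1.30 ± 0.14 and JARID2 by -0.24 ± 0.078. The JARID2 call was lost without liver bud progenitor cytoplasm replicate 2, at -0.18. EZH1 and RBBP7 were called higher in neuron cytoplasm by 0.36 ± 0.11 and 0.26 ± 0.085, where 26.0% of all genes were. With library totals alone these became -0.028 and -0.12, and the share of calls that were higher fell from 50.2% to 36.5%, so their direction rested on the scaling, which shifted the median of all genes by -0.37. DESeq2 called neither, and without liver bud progenitor cytoplasm replicate 1 the EZH1 call was lost, at 0.31, as was the RBBP7 call without replicate 2, at 0.21. Cytoplasmic EZH2 did not pass at 0.18 ± 0.10 (95% interval -0.02 to 0.38; edgeR adjusted p = 0.132).

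In P-bodies the picture for EZH2 was different, with 541 and 593 CPM in neurons against 151 and 153 CPM in liver bud progenitors, 3.38-fold higher (95% interval 2.99 to 3.83; edgeR adjusted p = 1.09e-07). EZH1 was the other member called higher, by 0.48 ± 0.13, where 18.4% of all genes were, and it was not called without liver bud progenitor P-body replicate 2, at 0.51. AEBP2, SUZ12, MTF2 and RBBP7 were called lower in neuron P-bodies, where 22.7% of all genes were, by -1.51 ± 0.18, -1.08 ± 0.13, -0.95 ± 0.089 and -0.28 ± 0.083. RBBP7 lost its call without either liver bud progenitor P-body replicate, at -0.27 and -0.22, and with RLE size factors, DESeq2, library totals alone or filterByExpr, between -0.20 and -0.093. EED had -1.02 ± 0.38, did not pass (edgeR adjusted p = 0.0566), and was called without either neuron P-body replicate, at -0.71 and -1.42. JARID2 did not pass at 0.18 ± 0.083, and was called in 6 of the alternatives, among them the fit without neuron P-body replicate 2, at 0.26. Of 9 members, 4 were called lower in neurons in cytoplasm and 4 in P-bodies, of which MTF2, AEBP2 and SUZ12 were in both. In bulk samples, fewer cells that express a gene and less RNA per cell cannot be told apart.

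**Figure D4:**
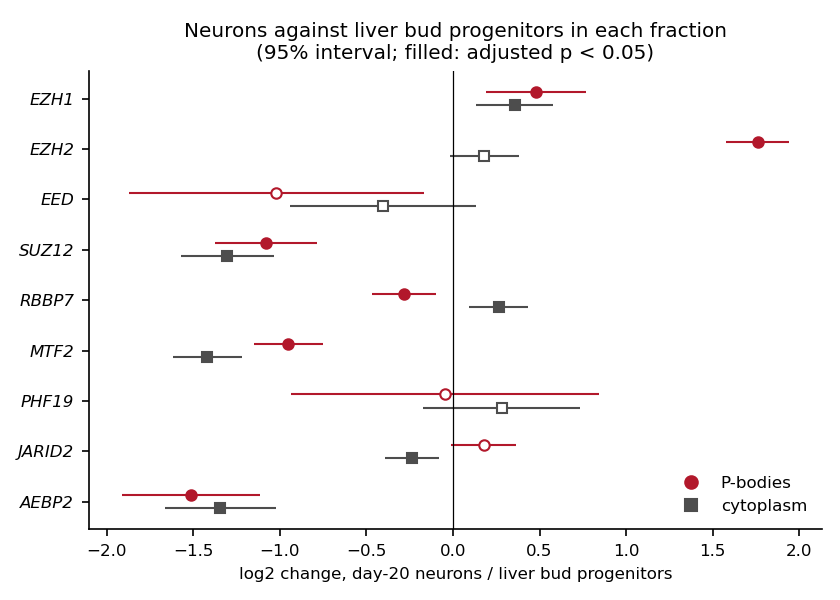
Log2 change between day-20 neurons and liver bud progenitors (x axis) for each PRC2 gene (y axis) in P-bodies and in cytoplasm, with 95% intervals from edgeR on 2 libraries per group; filled points passed an adjusted p of 0.05. EZH2 is at 1.76 in P-bodies and 0.18 in cytoplasm, whereas AEBP2 lies at -1.51 and -1.34.

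Other genes of the Polycomb system are given for comparison. Of 6 further PRC2 genes, LCOR and LCORL were called higher in P-bodies of all 4 cell types, between 0.86 and 1.76 on the log2 scale. The shares of all genes called are those given above for the PRC2 members. The LCOR and LCORL loci also encode the PRC2.1 accessory proteins PALI1 and PALI2. Counts were given per gene symbol, so transcripts of PALI1 and PALI2 cannot be told apart from the other transcripts of these loci. LCOR was the most abundant, with 3406 and 3511 CPM in HEK293T P-bodies against 1996 and 1939 CPM in cytoplasm. RBBP4, the close relative of RBBP7, was called higher in liver bud progenitors by 0.33 and in mESC by 0.27 and was not called in HEK293T at 0.088 or in neurons at 0.062. In mESC its CPM was 92.1 and 98.2 in P-bodies against 107.8 and 101 in cytoplasm, so its direction there rested on the scaling. PHF1, another relative of MTF2, was called lower in HEK293T at -0.82 and in liver bud progenitors at -0.51. EPOP had at most 2.41 CPM and EZHIP at most 0.537 CPM in the human libraries, and EZHIP is not among the mouse symbols.

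The H3K27 demethylases moved in opposite directions. KDM6A was called higher in P-bodies of the 4 cell types, by 1.48 in mESC, 1.38 in neurons, 0.90 in HEK293T and 0.65 in liver bud progenitors. KDM6B was called lower in each, at -1.03, -0.79, -0.90 and -1.47. In liver bud progenitors KDM6A had 638 and 656 CPM in P-bodies against 484 and 453 CPM in cytoplasm, and KDM6B had 14.6 and 17.0 CPM against 46.2 and 53.3 CPM. Neither gene had overlapping fractions in neurons or in mESC. Such separation was common among all genes, at 38.7% higher and 25.7% lower in neurons and 20.8% and 58.4% in mESC. The shares of all genes called in each direction are those given above for the PRC2 members.

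PRC1 ubiquitinates histone H2A. Of its 25 genes, 13 were called higher and 5 lower in HEK293T, beside 19.3% and 22.8% of all genes. In liver bud progenitors 6 were called higher and 8 lower, beside 21.4% and 17.1%. Neurons had 4 called in each direction, beside 14.6% and 14.1%, which is near the background. In mESC 14 were called higher and 1 lower, beside 25.8% and 20.6%, but this split rested on the TMM scaling, since in CPM 9 had both P-body libraries higher and 9 had both lower, beside 20.8% and 58.4% of all genes. The median log2 changes of PRC1 in these cells, in the same order, were 0.33, -0.21, -0.082 and 0.39. BMI1, a core PRC1 subunit, led the genes called higher in the human cells, with 1.90 in HEK293T, 1.55 in liver bud progenitors and 2.89 ± 0.47 in neurons, where its P-body libraries were far apart at 101.9 and 27.7 CPM. SCML2 followed in liver bud progenitors at 0.97 and in neurons at 2.71, and PHC3 in HEK293T at 1.34. Rnf2, the ubiquitin ligase, and Bmi1 led in mESC at 1.51 and 1.47. The genes called lower included PHC2 at -0.79 and PHC1 at -0.62 in HEK293T, L3MBTL2 at -0.78 and PCGF5 at -0.73 in liver bud progenitors, CBX6 at -0.84 in neurons and L3mbtl2 at -0.46 in mESC. Of the 4 genes of the PR-DUB deubiquitinase, 3 were called higher and 1 lower in HEK293T, 1 higher and 3 lower in liver bud progenitors, 2 higher and 1 lower in neurons and 2 higher and 0 lower in mESC, where Asxl1 was called higher with lower CPM in both P-body libraries, beside the same shares of all genes as above. Its catalytic gene BAP1 was called lower in neurons at -0.90, in HEK293T at -0.50 and in liver bud progenitors at -0.35.

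**Figure D5:**
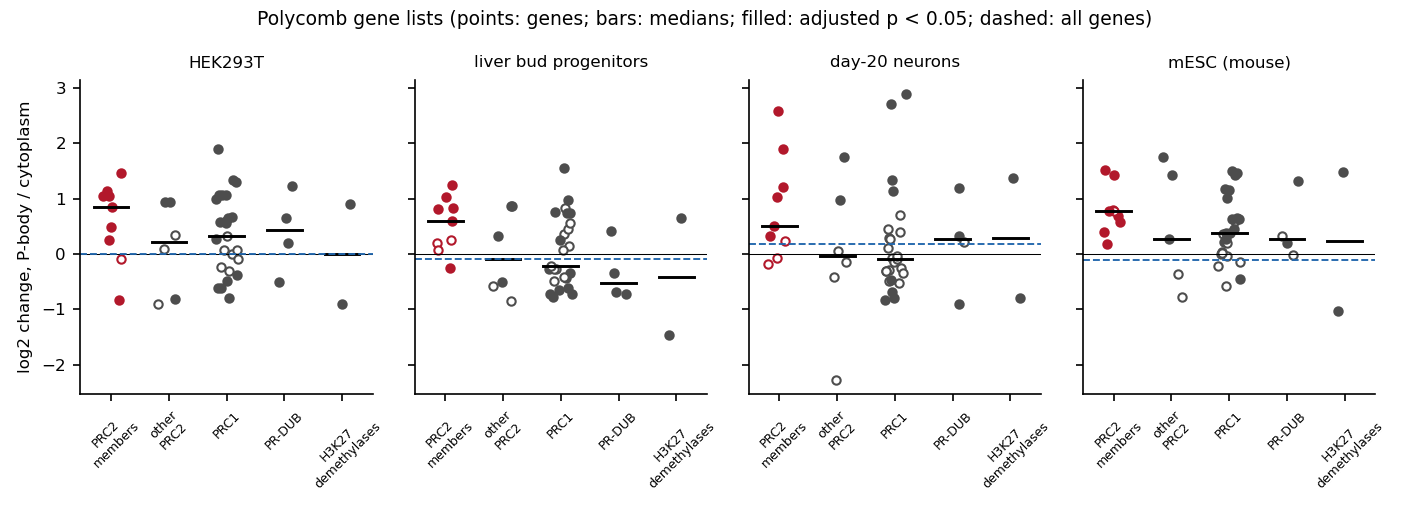
Log2 change between P-body and cytoplasm (y axis) of single genes (points) in 5 Polycomb gene lists (x axis) in 4 cell types; bars are medians, dashed lines the median of all genes, and filled points passed an adjusted p of 0.05. The median of the PRC2 members is above that of PRC1 in each cell type, at 0.85 against 0.33 in HEK293T and 0.77 against 0.39 in mESC.

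Sequence features of the members were described without a test, among the 17514 human genes with a coding transcript, 78.6% of the table, and the 14659 such mouse genes. Of the members called higher in all 4 cell types, MTF2, SUZ12 and AEBP2 had AU-rich transcripts. Their GC content was 37.5%, 38.2% and 38.6% at percentiles 6.48, 8.66 and 10.2, beside a median of 48.6%. Their 3′ untranslated regions held 31.4%, 29.7% and 30.2% GC. PHF19, the member called lower in HEK293T, had the highest GC content, 56.6% at percentile 75.2. EZH2, also called higher in the 4 cell types and the member with the largest change, was less AU-rich, with 44.9% GC at percentile 36.6. EZH1 with 50.6% and JARID2 with 49.9%, both called higher in HEK293T, were near the middle. EED was at 44.9% and RBBP7 at 44.5%. The EZH2 transcript had 2654 bases and that of MTF2 had 4075. In the mouse, Mtf2 was again lowest with 38.2% GC at percentile 3.91, and Eed, enriched in mESC, was at 47.8%.

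Across the 12 human libraries, EZH1 and EZH2 levels were only loosely related (Pearson r = 0.36 of log2 CPM + 1). These points share 6 groups of 2 libraries and 2 chemistries, so r is a description. Among the 6921 genes averaging 20 CPM or more, HMBOX1 (r = 0.98), PRDM15 (r = 0.95) and XPC (r = 0.94) had the pattern most like EZH1. LRCH1 (r = 0.99), DHX57 (r = 0.99) and CPEB4 (r = 0.98) were most like EZH2. Of the members that average 20 CPM or more, which leaves out EED and PHF19, MTF2 was nearest to EZH2 with r = 0.69 and JARID2 was nearest to EZH1 with r = 0.83.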

How the data were processed

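Per the labels and the study's methods, the deposited tables of the authors hold raw read counts, 1 row per gene symbol, for 12 human libraries (hg38) and 4 mouse libraries (mm10). For snapTotal-seq the methods name the nf-core RNA-seq pipeline with refGene annotation and salmon, and for Smart-seq hisat and featureCounts; the tables do not say which made the polyA columns. The smallest gene total was 10 reads. Salmon divides reads among near copies. The authors' tables of fold changes and adjusted p-values were not used.

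Groups came from the labels. Fractions were compared on the 4 libraries of a cell type, and neurons with liver bud progenitors on 4 or 8, with TMM normalization and the quasi-likelihood test of edgeR (version 4.0.16, two-sided, R 4.3.3), without covariates and leaving out genes with 0 counts in the libraries compared. P-values were adjusted by Benjamini-Hochberg over all genes tested, and genes under 0.05 were called. Standard errors were the log2 change divided by the square root of F. CPM used library totals, and levels per kilobase the longest coding transcript of GENCODE 44 (hg38) or M21 (mm10), from which loci were also taken by symbol. The floor of detection covers counting error only, because PCR copies were not marked by molecular identifiers.

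The 9 members, the gene lists and the rule for naming genes were chosen with earlier results of these data known. The rule names the 9 members, the further PRC2 genes and the demethylases, from PRC1 and PR-DUB the 2 called genes with the largest change in each direction per fraction comparison at a mean of at least 10 CPM, and the 3 genes most correlated with EZH1 and EZH2. Alternatives were RLE size factors, library size only, DESeq2 1.42.0, filterByExpr, ribosomal RNA genes left out, the replicate number as a block, a joint fit of the 12 human libraries, and leaving out each library. The main fits did not use the replicate numbers as pairs, and the labels do not say whether the numbers pair the libraries. Simulated counts with known changes were used to test the scripts.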

Additional observations from a re-analysis of the deposited data

Results flagged for a closer look

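For 4 members the P-body enrichment differed between neurons and liver bud progenitors by the interaction test of edgeR over 8 libraries. EZH2 was more enriched in neurons by 1.75 on the log2 scale, with a change of 2.60 there and 0.84 in liver bud progenitors. MTF2 was more enriched in neurons by 0.64, with 1.90 against 1.26. JARID2 differed by 0.58 and changed direction, with 0.33 in neurons and -0.26 in liver bud progenitors. RBBP7 was less enriched in neurons by -0.38, with 0.24 against 0.61, and this call depended on the scaling. Groups of 2 libraries are too small to test for a library that stands apart.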

How the results depend on the processing

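Leaving out a library leaves its group with 1, which the fit assumes to vary like the other groups. Of 720 log2 changes of members under the alternatives, 636 kept their direction and their side of the threshold, 30 lost the call, 19 gained it and 35 changed sign. Counts called higher stayed at 7 in HEK293T and at 5 in liver bud progenitors under every alternative. PHF19, the member called lower in HEK293T, was not called by DESeq2 or with all 12 human libraries (0 members), and leaving out a library gave 0 to 1. In neurons, leaving out a library gave 3 to 6 members called higher and 4001 to 8827 genes called. In mESC library size only gave 1 member lower. In the interaction, library size only gave 5 higher, RLE, library size only, DESeq2 and filterByExpr gave 0 lower, and leaving out a library gave 0 to 1 lower and 2419 to 6285 genes called. For cytoplasm, library size only and DESeq2 gave 0 members higher and leaving out a library 1 to 2. For P-bodies, leaving out a library gave 1 to 3 higher.

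Calls that changed sign were Ezh1 (-0.0096) and Jarid2 (-0.22) in mESC and EZH1 (-0.028) and RBBP7 (-0.12) in cytoplasm, each with library size only, which removes TMM. The other sign changes were of members not called. They were EED in HEK293T with all 12 libraries (0.029), PHF19 with library size only and with filterByExpr (-0.11 and -0.014 in liver bud progenitors, 0.087 and 0.025 in neurons), PHF19 (0.20 with library size only) and AEBP2 (0.033 with RLE, 0.36 with library size only, 0.032 with DESeq2, 0.14 with filterByExpr) in the interaction, EZH2 (-0.20) and PHF19 (-0.10) in cytoplasm with library size only, and PHF19 in P-bodies (0.040 with RLE, 0.095 with library size only, 0.043 with DESeq2, 0.15 with filterByExpr). Leaving out a library, uncalled values changed sign within these ranges: for EED, -0.27 to 0.055 in HEK293T and -0.58 to 0.12 in neurons; for PHF19, -0.52 to 0.48 in liver bud progenitors, -0.45 to 0.22 in neurons, -0.63 to 0.45 in the interaction and -0.43 to 0.60 in P-bodies; for AEBP2 in the interaction, -0.39 to 0.13. The causes were not tested.

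Replicate differences in P-bodies and cytoplasm correlated between -0.029 and 0.058 across genes, so libraries of equal number shared little variation. That cannot show whether they came from the same lysate. Per the study's methods P-bodies were sorted from a corresponding cytoplasmic fraction, and the labels do not say whether the numbers follow it. With the replicate number as a block, members called higher were 8 in mESC, 7 in neurons (RBBP7 added at 0.24), 7 in HEK293T and 5 in liver bud progenitors, and no other call of a member changed. Genes with under 20 CPM, EED and PHF19 in human cells, had the widest intervals.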
